A study of Mus musculus with 76 samples.

Results

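Aire and Fezf2, the transcription regulators that drive the expression of tissue-restricted self-antigens in medullary thymic epithelial cells (mTEC), were described together with 6 genes for proteins known to work with Aire or Fezf2 or to share a domain with Aire: Chd4, Deaf1, Sirt1, Top1, Prkdc and Cdk9. These 8 genes were taken by name from the whole-thymus table and followed by gene identifier through the other tables, out of 55487 genes in all, and each of the 8 was found. Levels in mTEC were set against cortical epithelial cells (cTEC) and against regulatory (Treg) and CD4 T cells sorted from the same organ, then compared between genotypes and days, in cultures, in lymph node and in unsorted thymus.

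The study asks about the thymus in a mouse model of amyotrophic lateral sclerosis. It holds 76 libraries in 26 groups, all with SOD1-G93A as the labelled strain, including those labelled wild type. SOD1-mutant mice (SOD1) were compared with wild-type mice (WT). At day 120 (d120) and at day 30 (d30), mTEC, cTEC, Treg and CD4 cells were sorted from SOD1 and WT thymus, with 3 libraries a group except WT cTEC and WT CD4 at d30, which have 2. SOD1 and WT whole thymus and SOD1 and WT lymph node labelled iLN were sampled at d120, with 3 libraries each. Cultures labelled Tregdiff were sampled at T0, T2 and T20 in both genotypes, with 3 libraries each. SOD1-G93A mice carry a mutant human SOD1 transgene in addition to their own Sod1. The Sod1 row of the tables separated the genotype labels. In all 13 sets of 1 population or tissue and time, every SOD1 library was above every WT library. Over the 12 sets of counts, Sod1 had 66.1 to 4983 counts-per-million (CPM) in SOD1 libraries and 14.2 to 432 in WT libraries. Whole thymus had 3710.3 to 4853 TPM (transcripts-per-million) in SOD1 against 394 to 448 TPM in WT. The CPM of Sod1 here are over all counts of a library, without the filter and scaling used for CPM below. The 66.1 is 1 count in replicate 1 of SOD1 mTEC at d30, a library of 15135 counts. The WT mTEC libraries at d30 had 30.6 to 35.4 CPM. With 1 count, Sod1 does not settle the genotype of that SOD1 library. The labels of replicate 2 of WT cTEC at d30 disagree on its genotype, and the title was followed. In cTEC at d30 Sod1 had 455 to 705 CPM in SOD1 and 79.6 to 83.4 CPM in WT, this library included. The column names of every WT library at d30 also begin with SOD1_d30, and for these too the titles were followed. The labels used here do not give the sex of the mice, the sort gates or whether mice were pooled. No label says that replicates came from separate mice, so p-values measure the spread between these libraries, which may be technical.

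During T cell selection, mTEC display proteins that otherwise belong to peripheral organs, so that T cells reactive to self are deleted or become Treg. Aire does not act like a usual sequence-specific activator. It works on chromatin and on paused RNA polymerase through partners. Prkdc is the catalytic subunit of the DNA-dependent protein kinase, and Top1 is a DNA topoisomerase. Both bind Aire at sites of transcription. Cdk9 is the kinase of P-TEFb, which releases paused polymerase, and Sirt1 is an NAD-dependent deacetylase that acts on Aire itself. Fezf2, a zinc-finger factor also known from cortical neurons, controls another set of self-antigens, with Chd4, the ATPase of the NuRD remodelling complex, as its partner. Deaf1 shares the SAND domain with Aire and is known for tissue antigens in lymph node stroma.

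The promoters of Aire, Fezf2 and Sirt1 are shown because these 3 genes were called higher in mTEC than in each other population below. Each is a RefSeq window of 300 bases on build GRCm38.p6, from 250 bases before to 50 after the start, and all 3 lie on the minus strand: Aire at chr10:78043561-78043860, Fezf2 at chr14:12345816-12346115 and Sirt1 at chr10:63338986-63339285. Capitals mark GGGCGG (the GC box), CCAAT and TATAA, read on either strand.
Aire: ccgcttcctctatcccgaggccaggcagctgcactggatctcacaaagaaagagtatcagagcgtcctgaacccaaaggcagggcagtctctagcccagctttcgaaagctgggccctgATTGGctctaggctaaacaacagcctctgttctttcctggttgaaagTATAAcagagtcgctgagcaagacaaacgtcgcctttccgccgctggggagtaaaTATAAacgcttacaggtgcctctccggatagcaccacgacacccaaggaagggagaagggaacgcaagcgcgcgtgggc
Fezf2: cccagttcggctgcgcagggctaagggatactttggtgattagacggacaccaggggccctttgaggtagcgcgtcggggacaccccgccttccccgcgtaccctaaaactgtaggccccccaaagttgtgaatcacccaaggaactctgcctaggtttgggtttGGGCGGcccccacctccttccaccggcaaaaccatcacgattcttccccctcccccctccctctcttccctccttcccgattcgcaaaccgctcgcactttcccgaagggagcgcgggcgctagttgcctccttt
Sirt1: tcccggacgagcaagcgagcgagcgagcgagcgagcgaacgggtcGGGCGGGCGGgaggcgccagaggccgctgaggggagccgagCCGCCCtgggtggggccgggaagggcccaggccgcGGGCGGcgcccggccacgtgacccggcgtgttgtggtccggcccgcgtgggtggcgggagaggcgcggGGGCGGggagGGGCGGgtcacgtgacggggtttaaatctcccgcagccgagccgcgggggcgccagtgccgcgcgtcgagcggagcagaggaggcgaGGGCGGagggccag

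The Aire window held 2 TATAA matches, 1 CCAAT match and no GC box, with a GC content of 55.3%. The Fezf2 window held 1 GC box and a GC content of 61.3%. The Sirt1 window held 7 GC boxes and no TATAA, with a GC content of 79.0% and 47 CpG dinucleotides, a CpG count above that of 98.6% of promoters. Over 32851 mouse promoters of the same length, the GC box occurred in 35.7%, CCAAT in 37.4% and TATAA in 24.9%, and the median GC content was 52.7%. A promoter was found for 7 of the 8 genes. A match describes letters and not a bound site.

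Total counts ran from 15135 to 36919936 per mTEC library, from 1269529 to 16776303 in cTEC, from 1944589 to 34151147 in Treg and from 837050 to 14047347 in CD4 cells. Replicate 1 of SOD1 mTEC at d30 is the library with 15135 counts, and replicate 3 of SOD1 cTEC at d120 stands apart with 7627 genes detected. In the labelled mTEC, the median of Tnfrsf11a, the receptor RANK, was 219 CPM against 17.4 in cTEC, and that of Cd80 was 89.2 CPM against 12.6. The cortical protease Prss16 had a median of 57.9 CPM in mTEC against 3289 in cTEC, and the thymoproteasome subunit Psmb11 6.77 CPM against 332. Krt5, Krt14 and Ccl21a, usually medullary, did not separate them: Krt5 had medians of 497 CPM in mTEC and 832 in cTEC, Krt14 514 and 480, and Ccl21a 1567 and 1005. The 6 mTEC markers summed to 895 to 9444 CPM in mTEC, 1063 to 8192 in cTEC, 23.6 to 108 in Treg and 9.37 to 70.9 in CD4 cells.

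Aire was highest in mTEC in these libraries. At d120 it had 771, 1030.2 and 1473 CPM in SOD1 mTEC, and 838, 2039 and 818 CPM in WT mTEC. At d30 it had 619, 1082 and 815 CPM in SOD1 mTEC, and 1002, 925 and 1063 CPM in WT mTEC, where the 619 is the value of the library of 15135 counts and rests on 18 counts. Each of the 12 mTEC libraries was above each of the 34 other sorted libraries, and the groups did not overlap. Outside mTEC, Aire had a lowest, median and highest value of 0, 6.18 and 26.2 CPM in cTEC, 3.88, 5.83 and 38.0 CPM in Treg, and 0, 2.74 and 6.38 CPM in CD4 cells. The order of medians was mTEC, Treg, cTEC and CD4 at d120, with both cTEC and CD4 at a median of 0, and mTEC, cTEC, Treg and CD4 at d30. The populations after mTEC overlapped with their neighbours on both days. At d120 Aire had counts in 2 of 6 cTEC libraries (replicate 2 of SOD1 and of WT, 16 and 23 counts) and in 2 of 6 CD4 libraries (SOD1 replicate 3 and WT replicate 2, 7 and 6 counts).

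Fezf2 was also highest in mTEC, followed by cTEC, Treg and CD4 by median at d30, while at d120 Treg and CD4 both had a median of 0. At d120 it had 414, 527 and 510.03 CPM in SOD1 mTEC, and 375, 448 and 171 CPM in WT mTEC. At d30 it had 34.4, 406 and 367 CPM in SOD1 mTEC, and 446, 404 and 444 CPM in WT mTEC, and the 34.4 is a single count in the shallow library. Both days kept every mTEC library above every other library of that day. In cTEC, Fezf2 had a lowest, median and highest value of 1.76, 10.8 and 79.5 CPM, and in Treg of 0, 0.235 and 11.6 CPM. No count of Fezf2 fell in any of the 11 CD4 libraries, which allows up to 0.261 CPM over the 6 libraries of d120 and 0.0811 CPM over the 5 of d30, from a floor of 3 counts over the group and for counting error only. Against those floors the mTEC median was at least 1655-fold higher at d120 and at least 4988-fold higher at d30. The cTEC libraries lay above all Treg libraries at d120, and these populations overlapped at d30.

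Sirt1 was the cofactor with the pattern of the regulators, from a higher floor in the other cells. At d120 it had 292, 324 and 333 CPM in SOD1 mTEC, and 233, 288 and 306 CPM in WT mTEC. At d30 it had 138, 334 and 354 CPM in SOD1 mTEC, and 262, 239.8 and 224 CPM in WT mTEC, with 4 counts behind the 138 of the shallow library. On each day all 6 mTEC libraries were above all libraries of the other populations. Elsewhere Sirt1 ranged from 29.8 to 208 CPM in cTEC, from 22.7 to 58.3 CPM in Treg and from 16.5 to 72.02 CPM in CD4 cells, with medians of 40.6, 42.2 and 42.2 CPM. Those 3 populations overlapped on both days. The 208 CPM is from replicate 3 of SOD1 cTEC at d120.

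**Figure D1:**
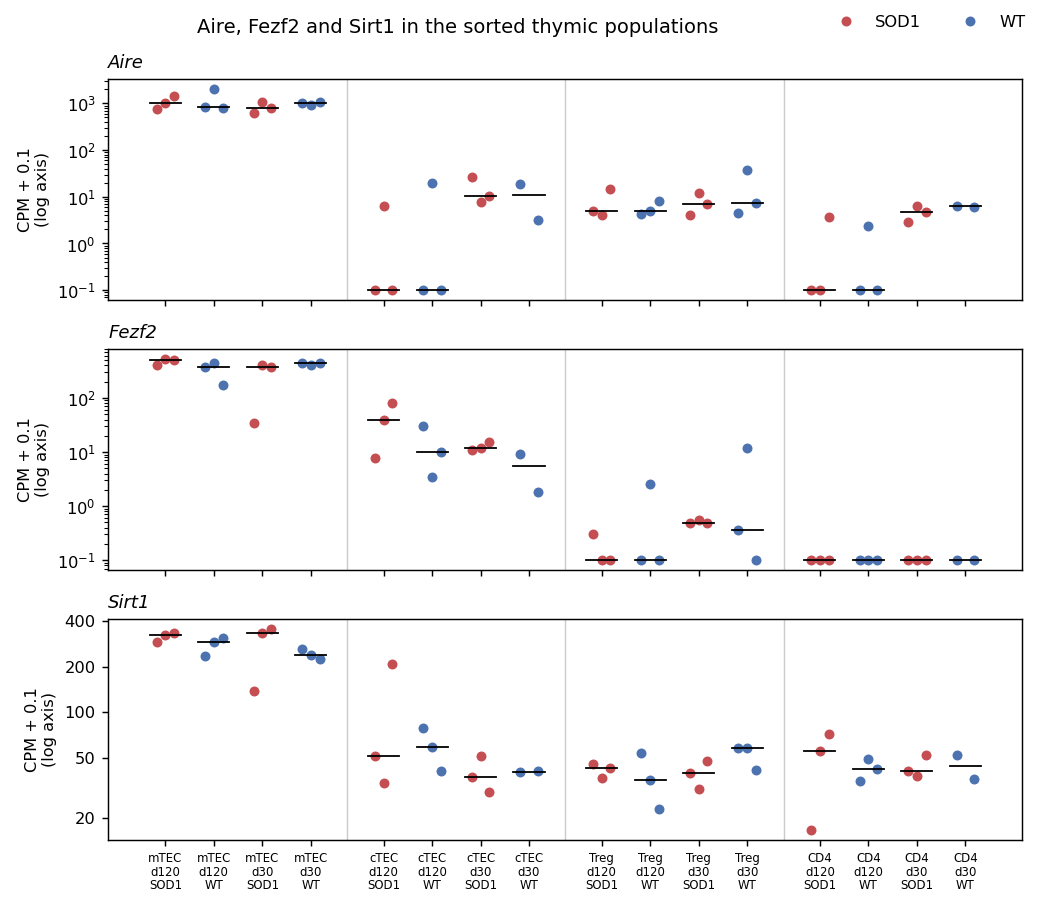
Aire, Fezf2 and Sirt1 in the 46 sorted libraries. Each point is a library, grouped by population (mTEC, cTEC, Treg, CD4) and within it by day and genotype, on a log axis of CPM + 0.1; bars are group medians. The mTEC points lie above all others of the same day for each gene, and Fezf2 is at 0 in all 11 CD4 libraries.

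The test of each population difference, edgeR's quasi-likelihood test with Benjamini-Hochberg adjustment over 21733 genes, called these 3 genes higher in mTEC in every comparison. A call is an adjusted p under 0.05, and a difference is the log2 fold change with its standard error (SE), as the mean over both genotypes. At d120 the Aire difference was 8.28 ± 0.88 against cTEC (adjusted p = 1.55e-08), 7.46 ± 0.83 against Treg (adjusted p = 2.14e-09) and 10.05 ± 0.98 against CD4 (adjusted p = 1.17e-10). At d30 it was 6.21 ± 0.90 against cTEC (adjusted p = 1.39e-05), 6.39 ± 0.79 against Treg (adjusted p = 4.89e-08) and 7.44 ± 0.97 against CD4 (adjusted p = 1.62e-07). Without replicate 2 of WT cTEC at d30 the first of these became 7.09, and without replicate 2 of WT Treg at d30 the second became 7.14. At d120 the sizes against cTEC and CD4 rested on 1 library of each genotype, since the others held no count. Without 1 of these 4 libraries (replicate 2 of SOD1 and of WT cTEC, replicate 3 of SOD1 CD4 and replicate 2 of WT CD4) the fitted difference ran from 11.87 to 13.16, values that depend on the fit because a genotype is then at 0.

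For Fezf2 at d120 the difference was 4.0 ± 0.80 against cTEC (adjusted p = 0.000373) and 10.46 ± 1.09 against Treg (adjusted p = 2.44e-09). For Fezf2 at d30 it was 5.46 ± 0.98 against cTEC (adjusted p = 0.000277) and 8.11 ± 1.0 against Treg (adjusted p = 1.15e-07). The cTEC difference at d30 was 6.25 without replicate 2 of WT cTEC. Against CD4, where a fold cannot be fitted to counts of 0, the adjusted p was 7.65e-09 at d120 and 5.70e-08 at d30. With no count in CD4, Fezf2 passed the filter on low counts through the other populations and could not be lower in mTEC. These p-values against CD4 are therefore a description. Replicate 2 of WT Treg at d30 had the highest Treg values of Aire (38.0 CPM) and Fezf2 (11.6 CPM), and also the highest Treg sums of mTEC markers (108 CPM) and of the epithelial markers Epcam, Krt8 and Foxn1 (171 CPM). The part of epithelial RNA in those values was not tested. Without that library Fezf2 stood 10.37 above Treg at d30 on the log2 scale, and at d120 the fitted difference was 13.15 without replicate 2 of WT Treg and 11.81 without replicate 1 of SOD1 Treg, with the other Treg libraries of that genotype at 0.

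For Sirt1 at d120 the difference was 1.96 ± 0.35 against cTEC (adjusted p = 6.60e-05), 2.90 ± 0.36 against Treg (adjusted p = 2.35e-08) and 2.72 ± 0.36 against CD4 (adjusted p = 9.52e-08). For Sirt1 at d30 it was 2.74 ± 0.40 against cTEC (adjusted p = 1.32e-05), 2.54 ± 0.36 against Treg (adjusted p = 5.06e-07) and 2.60 ± 0.39 against CD4 (adjusted p = 2.38e-06). Without replicate 3 of SOD1 cTEC at d120 the first of these became 2.59. Over 408 alternative fits of the 18 results for Aire, Fezf2 and Sirt1, all 408 kept the direction and the call, with a highest adjusted p of 0.0249. Among them are the fits of Fezf2 against CD4, whose direction was fixed by the absence of counts in CD4.

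Among all genes tested, many were higher in mTEC, which sets the background for these calls. At d120 the share of genes called higher in mTEC was 23.7% against cTEC, 32.2% against Treg and 35.4% against CD4, and the share called lower was 4.97%, 18.2% and 13.4%. At d30 the share called higher was 16.6% against cTEC, 33.1% against Treg and 31.7% against CD4, and the share called lower was 5.69%, 12.4% and 11.1%. Of the 8 genes, 3 were called higher in each of the 6 comparisons, a share near the background against the T cells and above it against cTEC. Against CD4 the 3 include Fezf2, which had no count there and could not be lower in mTEC. The share of all genes with every mTEC library above all other libraries of the day is not given here. The lack of overlap of these 3 genes is therefore a description. Called lower were 1 of 8 against cTEC and against CD4 at d120 and against Treg and against CD4 at d30, and 0 of 8 against Treg at d120 and against cTEC at d30. The median log2 fold change of all genes was 0.62, 0.23 and 0.77 against cTEC, Treg and CD4 at d120, and 0.03, 0.36 and 0.37 at d30.

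**Figure D2:**
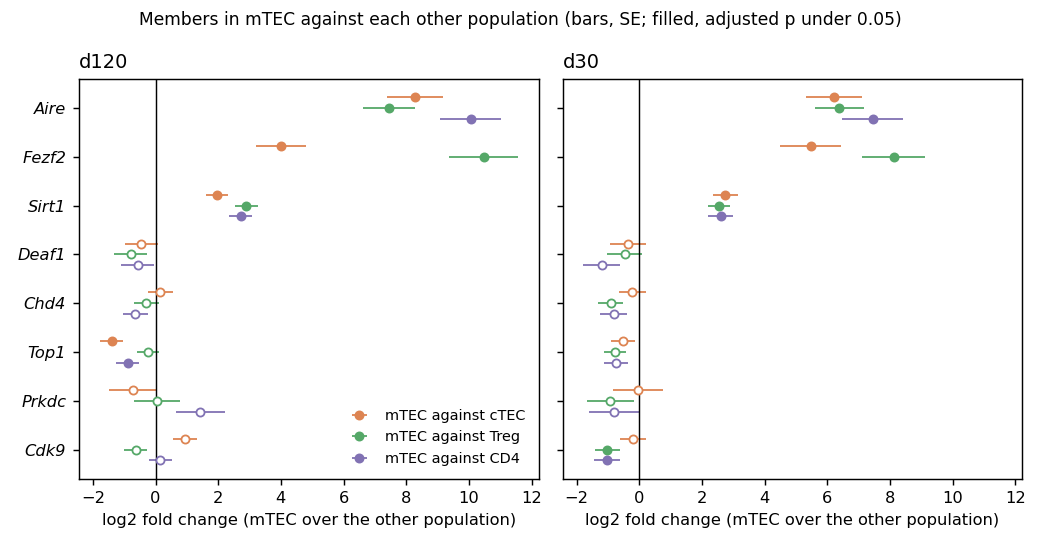
Difference of each gene in mTEC against cTEC, Treg and CD4, at d120 and at d30, as log2 fold change with bars of 1 SE. Filled points passed an adjusted p of 0.05; Fezf2 against CD4 is left out because CD4 libraries held no count. Aire, Fezf2 and Sirt1 lie to the right, and the other 5 genes lie around 0, with Top1 at -1.40 against cTEC at d120 the lowest filled point.

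Per kilobase of exon, Aire was the highest of the 8 in mTEC, with a median of 252 CPM per kb over the 12 libraries. Fezf2 followed at 135, Sirt1 at 54.5, Cdk9 at 25.6, Top1 at 14.1, Chd4 at 10.7, Deaf1 at 2.13 and Prkdc at 1.16 CPM per kb. In the 11 mTEC libraries other than the shallow library, the Aire level per kb was 1.48 to 3.82 times that of Fezf2, with a median of 1.83.

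Chd4, Deaf1, Top1, Prkdc and Cdk9 were, like Sirt1, expressed in all 4 populations. Chd4 had a lowest, median and highest value of 52.7, 94.2 and 196 CPM in mTEC at d120, against 30.6, 93.9 and 163 in cTEC, 86.6, 133 and 157 in Treg and 53.1, 120.6 and 365 in CD4. At d30 Chd4 had a median of 83.8 CPM in mTEC against 104 in cTEC, 161 in Treg and 181 in CD4. The mTEC values overlapped with cTEC and CD4 on both days and with Treg at d120, and all 6 Treg libraries were above all mTEC libraries at d30. No Chd4 difference was called.

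Deaf1 was lowest by median in mTEC on both days. It had a median of 9.33 CPM in mTEC at d120 (4.12 to 37.9), against 23.6 in cTEC, 20.6 in Treg and 21.7 in CD4. At d30 it had a median of 10.6 CPM in mTEC (0 to 16.1), against 14.9 in cTEC, 16.6 in Treg and 25.7 in CD4, where the CD4 libraries, at 21.8 to 31.5 CPM, did not overlap with mTEC. No Deaf1 difference was called. Prkdc, called in none either, had a median of 15.3 CPM in mTEC at d120 against 16.1 in cTEC, 18.3 in Treg and 7.93 in CD4. At d30 its median was 18.7 CPM in mTEC against 24.4 in cTEC, 44.3 in Treg and 36.6 in CD4. Its difference from cTEC at d120, -0.73 ± 0.74 (edgeR adjusted p = 0.524), rested on replicate 2 of SOD1 cTEC, with 118 CPM beside 0 and 1.34 in the other SOD1 cTEC libraries. Without that library Prkdc was higher in mTEC by 2.25 (adjusted p = 0.0275). The adjusted p of Chd4, Deaf1 and Prkdc and of the other differences not called ran from 0.0527 to 0.998.

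Top1 was lower in mTEC than in cTEC at d120. It ranged from 110 to 271 CPM in mTEC (median 197), against 195 to 1207 CPM in cTEC (median 404), so that the groups overlapped. The log2 difference was -1.40 ± 0.36 (edgeR adjusted p = 0.00335), and it was -0.83 (adjusted p = 0.0463) without replicate 3 of SOD1 cTEC, which holds the 1207. Against CD4 at d120, where Top1 had 141 to 772 CPM (median 238), the difference was -0.89 ± 0.36 (adjusted p = 0.0351). That call was lost without SOD1 CD4 replicate 2 (adjusted p = 0.159), without WT CD4 replicate 1 (-0.28, adjusted p = 0.515) and without any of 4 mTEC libraries, and also in the fit of both populations of the day alone (adjusted p = 0.0970) and with voom (-0.50, adjusted p = 0.222). At d30 Top1 had a median of 138 CPM in mTEC against 194 in cTEC, 232 in Treg and 216 in CD4, with no call.

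Cdk9 was lower in mTEC than in both T cell populations at d30. It ranged from 47.3 to 241 CPM in mTEC (median 59.9), where the 241 is 7 counts in the shallow library, against 118 to 175 CPM in Treg (median 139.8) and 129 to 172 CPM in CD4 (median 135). Apart from the shallow library, all mTEC libraries were below all Treg and CD4 libraries. The log2 difference was -1.02 ± 0.40 against Treg (edgeR adjusted p = 0.0327) and -1.03 ± 0.41 against CD4 (adjusted p = 0.0420). Without the shallow library it was -1.32 against Treg (adjusted p = 0.00387) and -1.34 against CD4. The Treg call was lost on leaving out any of 6 of 12 libraries (SOD1 Treg replicate 3, WT Treg replicate 2, and replicates 2 and 3 of SOD1 and of WT mTEC), with adjusted p up to 0.136. The CD4 call was lost without any of 10 of 11 libraries, all but the shallow library, with adjusted p up to 0.155. Both calls were also lost with DESeq2 (adjusted p = 0.0962 against Treg and 0.142 against CD4), with median-of-ratios scaling (-0.70, adjusted p = 0.161, and -0.68, adjusted p = 0.207) and with no scaling factor (adjusted p = 0.0683 and 0.103).

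At d120 Cdk9 stood between the populations. It ranged from 114 to 218 CPM in mTEC (median 132), against 2.67 to 103 CPM in cTEC (median 92.1), 196 to 253 CPM in Treg (median 231) and 104 to 171 CPM in CD4 (median 128). All mTEC libraries were above all cTEC libraries. The log2 difference from cTEC, 0.94 ± 0.37, missed the threshold (edgeR adjusted p = 0.0527), and passed it (adjusted p = 0.0258) without replicate 3 of SOD1 cTEC, which holds the 2.67.

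**Figure D3:**
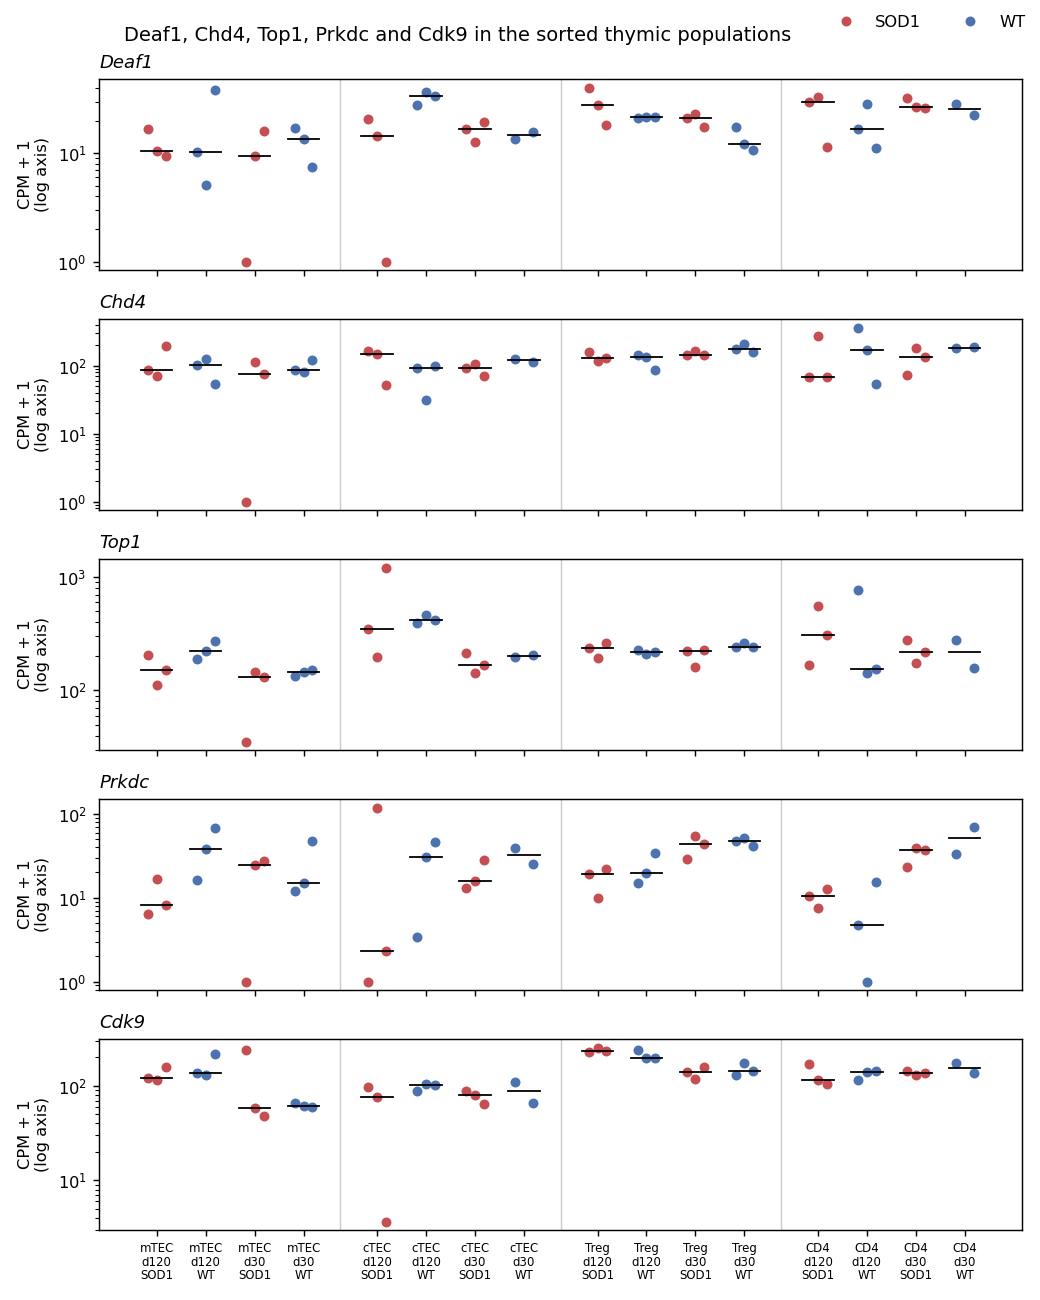
Chd4, Deaf1, Top1, Prkdc and Cdk9 in the 46 sorted libraries, as CPM + 1 on a log axis. Points are libraries by population, day and genotype, and bars are group medians. The populations overlap for most genes; at d30 Cdk9 in mTEC lies below Treg and CD4 apart from the library of 15135 counts.

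A list of 39 other partner genes was counted beside the 8, grouped as elongation, DNA repair and topology, NuRD, and chromatin and RNA partners. All 39 were tested. At d120, 4 were higher and 4 lower in mTEC than in cTEC, 0 higher and 19 lower than in Treg, and 1 higher and 12 lower than in CD4. At d30 the counts were 0 higher and 6 lower against cTEC, 1 and 21 against Treg, and 1 and 20 against CD4. The median log2 fold change of the list was -0.03, -0.85 and -0.26 against cTEC, Treg and CD4 at d120, and -0.45, -1.01 and -1.01 at d30, below the median of all genes in each comparison. These counts moved with single libraries: against cTEC at d120 the number higher was 1 without WT cTEC replicate 2 and 7 without SOD1 cTEC replicate 2, against cTEC at d30 the number lower was 2 or 3 without any of 8 of the 11 libraries, and against CD4 at d30 it was 13 without WT CD4 replicate 2.

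Of 9 genes of DNA repair and topology, 3 were higher in mTEC than in cTEC at d120, and 0 of 9 were lower. The median log2 fold change of the 9 was -0.56 there, against 0.62 for all genes. Without replicate 3 of SOD1 cTEC at d120, 3 of the 9 were higher and 3 lower. The 3 higher with all libraries were Top2a, the topoisomerase of dividing cells (2.31 ± 0.60, edgeR adjusted p = 0.00358), Parp1, a sensor of DNA breaks (1.33 ± 0.44, adjusted p = 0.0189), and H2afx, the histone marked at breaks (1.26 ± 0.42, adjusted p = 0.0206). Against T cells the same list was mostly lower in mTEC, with 7 of 9 called lower against Treg and 5 of 9 against CD4 at d120, and 8 of 9 against each at d30. At d30 4 of 9 were also lower in mTEC than in cTEC, and 1 or 2 of 9 without any of 9 of the 11 libraries, the shallow library among them. The 3 calls against cTEC at d120 became 1 without WT cTEC replicate 2 and 0 in the fit of both populations of the day alone. The 5 calls against CD4 at d120 became 3 without SOD1 CD4 replicate 3, SOD1 mTEC replicate 3 or WT mTEC replicate 1 or 2, and the 8 against CD4 at d30 became 5 without SOD1 CD4 replicate 3 or WT CD4 replicate 2. Top2a had a median of 28.7 CPM in mTEC against 3.63 CPM in cTEC at d120, and of 82.7 CPM in mTEC against 222 CPM in cTEC at d30. Markers of T lineage cells moved with these counts. T cell genes summed to 71.7 to 275 CPM in mTEC against 517 to 888 CPM in cTEC at d30, and to 10.1 to 72.8 CPM against 10.7 to 128 CPM at d120. Double-positive thymocyte genes summed to 25.2 to 68.8 CPM in mTEC against 493 to 967 CPM in cTEC at d30, and to 0 to 68.9 CPM against 6.68 to 179 CPM at d120. Their part in the list counts against cTEC was not tested.

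Of 11 other NuRD subunits, Mbd2, which reads methylated DNA, was lower in mTEC in all 6 comparisons. It had 44.8 to 159 CPM in mTEC at d120 (median 64.0), against 99.9 to 443 CPM in cTEC (median 167), a difference of -1.52 ± 0.30 (edgeR adjusted p = 0.000198). Gatad2b was higher in mTEC than in cTEC at d120 (1.20 ± 0.44, adjusted p = 0.0375). In all, 1 NuRD gene was higher and 1 lower against cTEC at d120, 6 were lower against Treg and 4 against CD4, the last of which was 2 without WT CD4 replicate 2. Hdac1, a deacetylase of the complex, had a median of 116 CPM in mTEC and 80.8 in cTEC at d120 and was not called (adjusted p = 0.0827).

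Of 14 chromatin and RNA partners, 2 were lower in mTEC than in cTEC at d120 and none was higher. Daxx, a histone chaperone that binds Aire, had 17.8 to 90.7 CPM in mTEC, against 108 to 540 CPM in cTEC, with no overlap and a difference of -2.15 ± 0.39 (edgeR adjusted p = 9.63e-05). Crebbp, an acetyltransferase, differed by -1.99 ± 0.50 (adjusted p = 0.00263), with 2221 CPM in replicate 3 of SOD1 cTEC, and its call was lost without that library (-0.91, adjusted p = 0.0860). Of the elongation genes, Ccnt1, the cyclin partner of Cdk9, did not differ beyond its error from cTEC at d120 (0.30 ± 0.31, adjusted p = 0.541), and was lower in mTEC than in Treg (-1.47 ± 0.31, adjusted p = 0.000169) and CD4 (-1.63 ± 0.31, adjusted p = 5.47e-05). Ccnt2, the other P-TEFb cyclin listed, and Smarca4, a remodelling ATPase, were not called against cTEC at d120 (adjusted p = 0.137 and 0.0592).

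Self-antigen genes known from earlier work to depend on Aire or on Fezf2 were counted as their targets, 12 genes of which 11 were tested. Higher in mTEC at d120 were 8 of 11 against cTEC, 9 of 11 against Treg and 10 of 11 against CD4, and at d30 9, 10 and 11 of 11. Targets such as Fabp9, with no count in cTEC, Treg or CD4 at d120, could pass the filter on low counts only through mTEC or the d30 libraries and could not be lower in mTEC at d120, so these counts are a description. The 9 against cTEC at d30 were 3 without WT cTEC replicate 3. The Aire-dependent milk protein gene Csn2 had 702 to 2393 CPM in mTEC at d120 (median 1647), against 0 to 42.3 CPM in cTEC (median 3.48), with no overlap. Ins2, the insulin gene, had 3.95 to 31.3 CPM in mTEC at d120 and no count in the 6 cTEC libraries. Tff3, a mucosal trefoil factor, had 24.2 to 66.6 CPM in mTEC at d120 and also no count in cTEC. Of the Fezf2-dependent genes, the sperm lipid-binding protein gene Fabp9 had 27.0 to 124 CPM in mTEC at d120 and no count in cTEC, and the apolipoprotein gene Apoc3 had 3.70 to 26.6 CPM against 0 to 1.81 CPM. Calb1, a calcium-binding protein gene, overlapped, with 0 to 65.6 CPM in mTEC against 0 to 2.67 CPM in cTEC.

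By likeness of pattern over the 16 sorted group means, among 15227 genes, the genes nearest to Aire were Hdc, Ly6m, Hal, Has2 and Tdh, each with a Pearson r of 0.98. Hdc, histidine decarboxylase, averaged 762 CPM over the mTEC groups and at most 16.7 CPM in any other group. Nearest to Fezf2 were Oit1, Skint7, Plb1, Sftpd and Alox12e, each at 0.99. Aire and Fezf2 correlated at 0.86 with each other, and Sirt1 at 0.92 with Aire and 0.93 with Fezf2. These values describe 16 means that share populations and libraries, and carry no test.

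None of the genes tested was called between SOD1 and WT cells, with all 8 tested in mTEC and cTEC and 7 in Treg and CD4, where Fezf2 did not pass the filter on low counts. Calls over all genes were rare: 0.00529% of genes tested in mTEC at d120 and 0.00529% at d30, 0.00684% in cTEC at d120 and 0.00684% at d30, 0.0135% in Treg at d120 and 0.0135% at d30, and 0.00801% in CD4 cells at d120 and 0.00801% at d30. The shares at an unadjusted p under 0.05 in mTEC were 1546 of 18919 genes at d120 and 68 of 18919 at d30, and 1 of the 8 genes at d120 and 0 at d30. At d120 Aire averaged 1092 ± 355 CPM in SOD1 mTEC and 1232 ± 699 CPM in WT mTEC (SD, n = 3 each), a log2 difference of -0.19 ± 0.39 (edgeR adjusted p = 0.987) that was 0.39 without WT mTEC replicate 2. Fezf2 averaged 484 ± 60.8 CPM in SOD1 mTEC and 331 ± 144 CPM in WT mTEC, a difference of 0.53 ± 0.45 (adjusted p = 0.896). Sirt1 averaged 316 ± 21.4 CPM in SOD1 mTEC and 276 ± 37.9 CPM in WT mTEC, a difference of 0.18 ± 0.30 (adjusted p = 0.973). The genotype groups overlapped for all 3 genes.

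Prkdc had the lowest unadjusted p of the 8 in mTEC at d120. It had 5.35, 15.6 and 7.24 CPM in SOD1 mTEC, and 15.1, 36.8 and 66.1 CPM in WT mTEC, so that the highest SOD1 library lay just above the lowest WT library. The log2 difference was -2.07 ± 0.78 with an unadjusted p of 0.0184, and it missed the threshold over all genes (edgeR adjusted p = 0.438). The difference was -2.66 without SOD1 mTEC replicate 2, -1.44 without WT mTEC replicate 3 and -1.06 with voom, and it was not called in any of these fits.

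At d30 Aire averaged 839 ± 232 CPM in SOD1 mTEC and 997 ± 68.8 CPM in WT mTEC, a log2 difference of -0.22 ± 0.40 whose sign was lost with no scaling factor (0.01). Fezf2 averaged 269 ± 204 CPM in SOD1 mTEC and 431 ± 23.9 CPM in WT mTEC, a difference of -0.48 ± 0.46, and -0.12 without the shallow library. Sirt1 averaged 275 ± 119 CPM in SOD1 mTEC and 242 ± 18.9 CPM in WT mTEC, a difference of 0.30 ± 0.31. The edgeR adjusted p was 1 for each of the 3 genes, which does not show that the levels were equal. Of 18919 genes, 68 had an unadjusted p under 0.05 in this comparison, a smaller share than that threshold gives with no differences at all. The test of whether the genotype difference in mTEC changed with day called 0 of the 8 and 0% of all genes, with 783 genes at an unadjusted p under 0.05, and the lowest unadjusted p among the 8 was 0.0929. In the 10 genotype comparisons, 0 of the members tested were called in any of 162 fits. Of the 11 target genes and the 39 partners, 0 were called between genotypes in mTEC on either day.

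With age, the levels of Aire, Fezf2 and Sirt1 in mTEC moved by less than their error or little more, and none was called. As the mean of both genotypes, d120 against d30, the log2 difference was 0.35 ± 0.28 for Aire (edgeR adjusted p = 0.616), 0.14 ± 0.32 for Fezf2 (adjusted p = 0.902) and 0.15 ± 0.21 for Sirt1 (adjusted p = 0.812). With no scaling factor Fezf2 stood at -0.08 and Sirt1 at -0.08, and without the shallow library Fezf2 stood at -0.06. The medians were 934 CPM at d120 and 964 at d30 for Aire, 431 and 405 for Fezf2, and 299 and 251 for Sirt1. Over all genes, 3.16% were called by age in mTEC, and 0 of the 8. In the same libraries the epithelial markers summed to 3793 to 6239 CPM at d120 against 1411 to 3251 at d30, and the mTEC markers to 3595 to 9444 against 895 to 3093, and their part in the values was not tested. The labels give no sequencing run, and day and run cannot be told apart.

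Cdk9 in mTEC was the gene nearest to a call by age. It had 114 to 218 CPM at d120 (median 132), against 47.3 to 241 CPM at d30 (median 59.9), a log2 difference of 1.13 ± 0.32 (edgeR adjusted p = 0.0752). Without the library of 15135 counts the difference was 1.31 (adjusted p = 0.00818), and the d120 and d30 libraries then did not overlap.

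In Treg, Cdk9 rose with age while Prkdc and Chd4 fell. Cdk9 had 196 to 253 CPM at d120 (median 231), against 118 to 175 CPM at d30 (median 139.8), with no overlap and a log2 difference of 0.63 ± 0.10 (edgeR adjusted p = 0.000572). Prkdc had 8.82 to 33.2 CPM at d120 (median 18.3), against 27.6 to 54.1 CPM at d30 (median 44.3), a difference of -1.22 ± 0.31 (adjusted p = 0.00990). Chd4 had 86.6 to 157 CPM at d120 (median 133), against 143 to 211 CPM at d30 (median 161), a difference of -0.39 ± 0.12 (adjusted p = 0.0282). The Chd4 call was lost without SOD1 Treg d30 replicate 2 (adjusted p = 0.0518), without WT Treg d30 replicate 1 (adjusted p = 0.0606) and with no filter on low counts (adjusted p = 0.0834). Deaf1 had a median of 20.6 CPM at d120 against 16.6 at d30 and missed the threshold (0.57 ± 0.21, adjusted p = 0.0632). So 3 of the 7 genes tested in Treg were called, beside 29.9% of all genes. Markers moved with age in the same libraries: B cell genes summed to 112 to 349 CPM at d120 against 31.7 to 77.2 at d30, and double-positive thymocyte genes to 563 to 1044 CPM against 1615 to 2298. Their part in these differences was not tested.

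In CD4 cells Prkdc had 0 to 14.3 CPM at d120 (median 7.93), against 22.1 to 69.2 CPM at d30 (median 36.6). The days did not overlap, and the difference of -2.20 ± 0.71 missed the threshold (edgeR adjusted p = 0.0631). It passed without WT CD4 d120 replicate 2 or replicate 3 (-3.12 without replicate 3). None of the 7 genes tested in CD4 was called, beside 10.6% of all genes. Double-positive thymocyte genes in CD4 libraries summed to 305 to 674 CPM at d120 against 668 to 1354 at d30. T cell genes there summed to 853 to 1213 CPM at d120 against 1994 to 2267 at d30, without overlap. Treg markers moved the other way, with 451 to 1013 CPM at d120 against 352 to 527 at d30. The part of these markers was not tested. In cTEC none of the 8 was called, beside 4.63% of all genes, and Top1 came nearest (1.71 ± 0.48, adjusted p = 0.0629), with 195 to 1207 CPM at d120 against 142 to 215 at d30. Without SOD1 cTEC d120 replicate 3 that difference was 1.04 and passed (adjusted p = 0.0198). In cTEC, T cell genes summed to 10.7 to 128 CPM at d120 against 517 to 888 at d30. Double-positive thymocyte genes summed to 6.68 to 179 CPM against 493 to 967. The mTEC markers moved the other way, with 1703 to 8192 CPM against 1063 to 2050. Their part in the cTEC values was not tested.

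The Tregdiff cultures held few counts of either regulator, and 3 of the other genes were called lower after T0. Aire had 46 counts over the 6 libraries of T0, 5 over those of T2 and 6 over those of T20. Fezf2 had 27, 11 and 12 counts. Its highest level was 24.9 CPM in a WT T0 library, where no T0 library held more than 7 counts of Fezf2. Neither Aire nor Fezf2 passed the filter on low counts. Of the 6 genes tested, 3 were lower at T2 than at T0 and the same 3 at T20. Of all 11787 genes tested, 4048 were lower and 2802 higher at T2, and 4018 lower and 2845 higher at T20. Called in either direction were 58.1% and 58.2%. The median log2 fold change of all genes was -0.24 at T2 and -0.25 at T20. With no scaling factor these medians were -0.002 and -0.01. Both comparisons share the T0 libraries. Column names number the T0, T2 and T20 libraries of a replicate consecutively, and the titles do not say whether they share a source. The fit reported here used no pairing. Same-numbered libraries deviated together only weakly from their group means, with correlations to T0 of 0.02 to 0.12, so the numbers do not establish pairs. Treg markers summed to a median of 75.9 CPM at T0, 2448 at T2 and 1637 at T20 in these libraries. Several other marker sums were lower after T0. Their medians at T0, T2 and T20 were 1363, 781 and 829 CPM for T cell genes and 1278, 581 and 548 CPM for leukocyte genes. They were 322, 42.6 and 54.8 CPM for double-positive thymocyte genes, and 191, 17.8 and 14.4 CPM for Col1a1, Pdgfra and Pecam1 together. In sorted CD4 cells Pecam1 made up nearly all of that last sum, with a mean of 33.3 of 33.4 CPM. The part of these markers in the differences was not tested.

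Deaf1 had 25.01 to 39.2 CPM at T0 (median 36.2), 8.10 to 22.5 CPM at T2 (median 11.4) and 9.34 to 23.7 CPM at T20 (median 11.03). All T0 libraries were above all libraries of T2 and T20. The log2 difference from T0 was -1.53 ± 0.27 at T2 (edgeR adjusted p = 0.000124) and -1.36 ± 0.27 at T20 (adjusted p = 0.000377). Sirt1 had 48.6 to 71.2 CPM at T0 (median 55.6), 13.04 to 31.9 CPM at T2 (median 19.1) and 9.34 to 40.6 CPM at T20 (median 22.6), again without overlap with T0. Its difference from T0 was -1.43 ± 0.26 at T2 (adjusted p = 0.000169) and -1.20 ± 0.26 at T20 (adjusted p = 0.000767). Prkdc had 20.9 to 53.4 CPM at T0 (median 29.1), 5.61 to 27.2 CPM at T2 (median 17.6) and 9.34 to 19.97 CPM at T20 (median 14.1), with overlap between T0 and T2 and none between T0 and T20. Its difference from T0 was -0.84 ± 0.31 at T2 (adjusted p = 0.0249) and -1.12 ± 0.32 at T20 (adjusted p = 0.00577).

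Several of these culture levels rest on few counts, since totals ran from 171619 to 19699330, and SOD1 T20 replicate 2 has 2 counts each of Deaf1, Sirt1 and Prkdc. With no filter on low counts the T20 differences of Deaf1, Sirt1 and Prkdc missed the threshold (edgeR adjusted p = 0.101, 0.134 and 0.289). Prkdc also missed it at T2 with no filter (adjusted p = 0.685) and no scaling factor (adjusted p = 0.127), and without libraries under 300000 counts at T2 (adjusted p = 0.257) and T20 (adjusted p = 0.112). The T2 difference of Prkdc missed it without any of 7 of 12 libraries (SOD1 T0 replicates 2 and 3, SOD1 T2 replicates 2 and 3, WT T0 replicates 1 and 3, and WT T2 replicate 3). The T20 difference of Prkdc missed it without SOD1 T20 replicate 3 (adjusted p = 0.0558) or WT T0 replicate 1 (adjusted p = 0.0910). Top1 had medians of 177, 262 and 282 CPM at T0, T2 and T20 and was not called (0.44 ± 0.23, adjusted p = 0.110, at T2 and 0.51 ± 0.23, adjusted p = 0.0653, at T20). Chd4, with medians of 272, 248 and 252 CPM, and Cdk9, with 95.7, 91.6 and 88.3 CPM, were not called either.

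**Figure D4:**
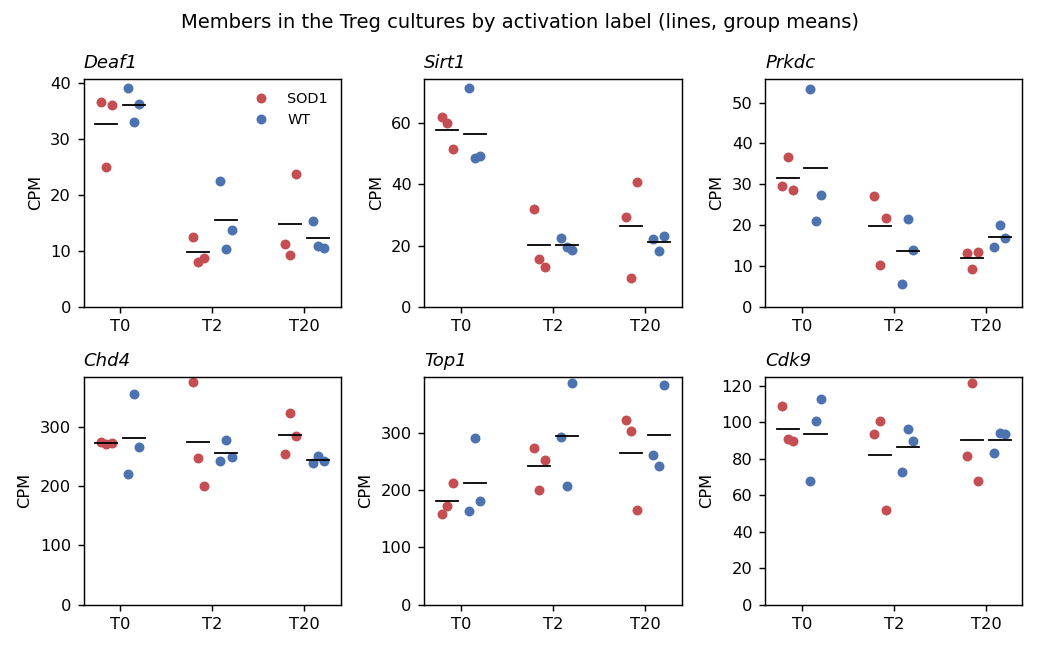
The 6 genes other than Aire and Fezf2 in the Tregdiff cultures at T0, T2 and T20, in CPM on linear axes. Points are libraries, SOD1 left of WT at each label, and horizontal lines are group means. For Deaf1 and Sirt1 every T0 library lies above every library of T2 and T20, while Chd4, Top1 and Cdk9 overlap between labels.

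In lymph node, whose libraries hold 63887 to 894958 counts, Aire had 4, 0 and 0 counts in SOD1 mice and 1, 1 and 2 counts in WT mice. Sirt1 had 23.5 to 36.0 CPM in SOD1 lymph node and 15.4 to 48.9 CPM in WT lymph node, and Deaf1 had 36.0 to 67.7 CPM and 0 to 68.0 CPM. These ranges overlapped, and no test was run at this depth.

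In unsorted thymus at d120, where the deposited values are TPM, Aire and Fezf2 were near the low end and the other members were not. Fewer mTEC and less RNA per cell cannot be told apart in such bulk samples. Aire had 2.17, 4.34 and 1.64 TPM in SOD1 thymus, and 3.06, 2.79 and 1.81 TPM in WT thymus. Fezf2 had 1.45, 2.36 and 0.669 TPM in SOD1 thymus, and 1.04, 1.39 and 1.25 TPM in WT thymus. The genotypes overlapped for both. On the log2(TPM + 1) scale, which understates changes of low genes, the difference was 0.02 ± 0.33 for Aire and 0.11 ± 0.32 for Fezf2 (SE).

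The order of medians over the 6 thymus libraries was Chd4 at 234, Cdk9 at 153, Top1 at 73.8, Deaf1 at 43.0, Sirt1 at 23.8 and Prkdc at 8.82 TPM, ahead of Aire and Fezf2. Cdk9 had 153, 154 and 163 TPM in SOD1 thymus, and 152, 139.5 and 132 TPM in WT thymus. All SOD1 libraries were above all WT libraries, by a log2 difference of 0.15 ± 0.09 that was not called. The limma adjusted p was 0.999 for each of the 8 genes, beside 0.0831% of all genes called.

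**Figure D5:**
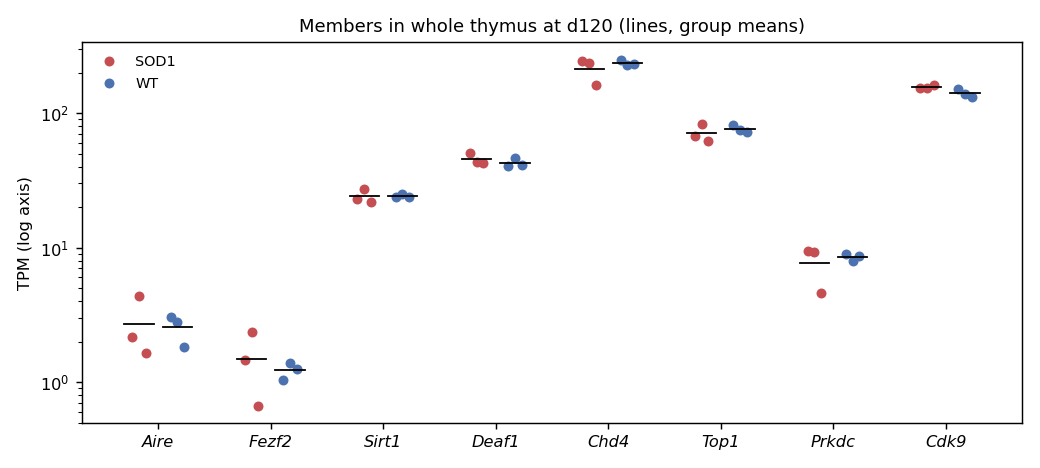
The 8 genes in whole thymus at d120, in TPM on a log axis, with SOD1 libraries left of WT libraries. Points are libraries and lines are group means. Aire and Fezf2 lie between 0.669 and 4.34 TPM in both genotypes, below the other 6 genes.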

How the data were processed

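Libraries were made with the SMARTseq v4 low input kit, per the labels' protocols. The submitters' processing notes list the genome build mm10 and DESeq2 but give neither a role. How reads were aligned, counted and treated by strand is not given in the sources used here. The deposited tables of sorted cells, lymph node and cultures hold whole-number counts for each gene. The deposited whole-thymus table holds TPM, scaled to the same sum in each library, so its depth is unknown. Of 55487 gene identifiers 55094 matched GENCODE vM21, used for positions and exon lengths. Symbols were taken from the whole-thymus table. The exons of Aire and Dnmt3l overlap by 67 bases on opposite strands, those of Sirt1 and Gm16145 by 65, those of Chd4 and Mir7045 by 63, and those of Cdk9 and Mir2861 and Mir3960 by 82 and 73. The partners of Aire and Sirt1 lie on the opposite strand and those of Chd4 and Cdk9 on the same strand. How reads there were assigned is not given.

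Counts were tested with edgeR 4.0.16 (R 4.3.3) after filterByExpr by group and TMM scaling, with glmQLFit in its legacy form and glmQLFTest, and Benjamini-Hochberg adjustment over all genes. The 46 sorted libraries shared 1 fit for population differences, and each population was fitted alone for genotype and age. The planned dispersion per gene was read first as a tagwise dispersion, whose results were seen. It was replaced, after a test on simulated counts, by the mean trend with a quasi-dispersion per gene, and it is kept as an added alternative. CPM are counts over the total of genes passing the filter times the TMM factor. Whole thymus was tested with limma 3.58.1 with a mean-variance trend on log2(TPM + 1), keeping genes that averaged 1 TPM or more, as that table holds TPM and not the counts foreseen. For edgeR, SE is the absolute log2 fold change divided by the square root of F. For whole thymus it is the moderated standard error from limma.

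All 8 members are named, and from each partner or target list up to 3 genes with the smallest p in mTEC against cTEC at d120, with the 5 genes most like Aire and like Fezf2 in pattern among those of at least 5 CPM in a group. One gene that this rule names is not reported here. The members and lists were chosen with earlier results of these data known. Alternatives were DESeq2 1.42.0, limma voom, other scalings, filters and dispersions, replicate blocks and leaving out libraries. Figures and tables used Python 3.11.15, pandas 2.3.3, numpy 2.4.6 and matplotlib 3.10.9.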

Additional observations from a re-analysis of the deposited data

How the results depend on the processing

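Of 1050 alternative fits of 52 single-gene results, 936 kept direction and side of the threshold, 53 lost a call, 48 gained a call and 13 changed sign. Members called numbered 7 against Treg at d30 with voom and with the populations of the day alone, 8 against CD4 at d30 with voom and 5 against Treg at d120 with voom. By age, 1 was called in mTEC with voom, shared or tagwise dispersion or without libraries under 300000 counts (0 to 1 leaving out a library), 1 in cTEC with DESeq2, voom, no filter, shared or tagwise dispersion (0 to 1), and in CD4 2 with voom and 1 with DESeq2, no filter, shared or tagwise dispersion (0 to 1). In cultures, 5 were called at T2 with no filter (2 to 5 leaving out a library), and 3 to 5 at T20.

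Signs changed for Prkdc against cTEC at d120 (1.20 with voom; -1.04 to 2.25 leaving out a library), Aire between genotypes in mTEC (0.00765 at d30 with no scaling factor; -0.47 to 0.39 at d120 leaving out a library), Fezf2 by age (-0.0771 with no scaling factor, -0.0647 without libraries under 300000 counts; -0.0647 to 0.29 leaving out a library), Sirt1 by age (-0.0793 with no scaling factor), and in whole thymus for Aire (-0.28 to 0.23) and Fezf2 (-0.14 to 0.37) leaving out a library. The cause was not tested. With voom the mTEC differences of Aire were 6.88 and 7.04 against cTEC and Treg at d30 and 10.35 and 10.96 against cTEC and CD4 at d120, and those of Fezf2 were 9.83 against Treg at d30 and 4.94 and 11.07 against cTEC and Treg at d120.

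Genes called ranged over alternatives from 1497 to 10142 (4852 as reported) against cTEC, 8387 to 15377 (9887) against Treg and 6540 to 14538 (9303) against CD4 at d30, from 1632 to 6623 (6231) against cTEC and 6378 to 10994 (10600) against CD4 at d120, and by age from 224 to 1794 (597) in mTEC, 80 to 1919 (677) in cTEC and 156 to 2788 (1321) in CD4. Between genotypes in sorted cells they ranged from 0 to 222 (1 to 2), and for the interaction from 0 to 14 (0). Other scalings moved the median of all genes by -0.33 to 0.30, and with no scaling factor 40.9% of age calls in mTEC were higher, against 66.3% as reported, 23.9% against 34.9% in cTEC and 33.3% against 44.1% in CD4.

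Same-numbered libraries of 2 populations deviated together only weakly (correlations of -0.11 to 0.11 for mTEC with cTEC, 0.01 to 0.23 with Treg and -0.02 to 0.17 with CD4; by the JL numbers in the labels, which pair some cTEC libraries otherwise, 0.05 to 0.16 for mTEC with cTEC), so the numbers do not establish pairs. With the replicate block, Cdk9 against CD4 at d30 had an adjusted p of 0.0637 and Top1 against CD4 at d120 one of 0.0967, and no other call of the 8 genes changed. The count of genes called against cTEC at d120 was 4995 with the block.

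Depth limits the shallow SOD1 mTEC library at d30, where 1 count is worth 34.4 CPM, and Aire in cTEC and CD4 at d120, with 39 and 13 counts in all.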
